A study of Mus musculus with 12 samples.

Results

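The interaction of p53 genotype with diet was described in mouse liver, as the response to HFD in p53 knockout livers minus the response in p53 wild-type livers. The contrast used every library of the series, 12 of 12, placed in 4 groups of 3 by the prefix of their labels. All livers were from C57BL/6 mice of 12 weeks. The groups were p53 wild type on the normal diet (wt-normal), p53 wild type on HFD (wt-HFD), p53 knockout on the normal diet (ko-normal) and p53 knockout on HFD (ko-HFD). HFD is read here as a high-fat diet; the labels state neither its composition and duration nor the sex of the mice or the knockout allele. The labels number the libraries within a group without saying that each came from a separate animal, so a p-value here reflects variation between libraries, part of which may be technical. A negative interaction, on the log2 scale, means that the change on HFD was lower in knockout than in wild-type livers, and a positive one that it was higher.

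p53, encoded by Trp53, is a stress-activated transcription factor that induces genes of cell cycle arrest, DNA repair and apoptosis, and it also acts on genes of lipid and sugar metabolism. A high-fat diet loads hepatocytes with fatty acids and sterols, to which the liver responds through the sterol-sensing SREBP factors, nuclear receptors and the unfolded protein response of the endoplasmic reticulum (ER). The series' title names Sqle, which encodes squalene epoxidase of the cholesterol pathway, as a p53-regulated gene. A design with both genotypes on both diets asks which of the responses to diet depend on p53.

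Library totals ran from 15465187 to 20492567 counts, and 14433 of 52636 genes were kept for testing. Levels are given as CPM, counts scaled to a common library size after correction for composition. Replicate 2 of wt-normal stood apart: skeletal muscle markers made up 1.12% of its reads, where the highest share elsewhere was 0.00137%. All mitochondrially encoded genes together took 14.6% of the counts of ko-normal replicate 1 and 10.3% of those of ko-HFD replicate 2, against 4.18% to 7.22% in the others. A clock index, the mean log2 level of Arntl, Npas2 and Clock minus that of Dbp, Nr1d1, Per3 and Ciart, was 1.24, -1.19 and 1.56 in wt-normal, -4.11, -3.7 and -0.19 in wt-HFD, -5.11 to -3.53 in ko-normal and -4.85 to -4.07 in ko-HFD. Hepatocyte markers summed to 42100 to 57100 CPM in wt-normal, 49600 to 57700 in wt-HFD, 75700 to 79000 in ko-normal and 75300 to 82800 in ko-HFD. Bulk liver cannot separate a change in the number of cells of a type from a change in RNA per cell.

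Trp53 (ENSMUSG00000059552, chr11:69580359-69591873, plus strand, GRCm38) had 16.3, 14.5 and 15.6 CPM in wt-normal, 8.54, 10.7 and 24.5 in wt-HFD, 1.62, 0.399 and 0.273 in ko-normal and 0.701, 0.748 and 0.752 in ko-HFD. The knockout libraries all lay under the wild-type libraries on both diets. Its interaction was 0.05 (SE 0.76, 95% interval -1.6 to 1.71), a value at the low counts of the knockouts. Cdkn1a, the cyclin-dependent kinase inhibitor p21 and a direct p53 target, had 31.9, 33.3 and 115 CPM in wt-normal and 10, 13.7 and 76.6 in wt-HFD. In the knockouts it had 0.811, 3.05 and 0.872 CPM on the normal diet and 1.23, 2.48 and 4.14 on HFD. Its interaction of 1.54 (95% interval -0.98 to 4.06) was within the spread between libraries, with an unadjusted p of 0.209 by edgeR's quasi-likelihood test. It was 0.66 without wt-normal replicate 3, 2.45 without ko-normal replicate 2, 3.04 without wt-HFD replicate 3 and 0.07 with the clock index as a covariate.

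No gene passed the interaction test over all genes. By edgeR's quasi-likelihood test with Benjamini-Hochberg adjustment, 0 of 14433 genes (0%) had an adjusted p under 0.05, and the smallest adjusted p was 0.0587, for Serpina12. At an unadjusted p under 0.05 there were 725 genes (5.02%), of which 373 (2.58%) had a positive and 352 (2.44%) a negative interaction. DESeq2's Wald test called 19 genes, among them Serpina12 (adjusted p = 1.56e-09) and Foxq1 (adjusted p = 5.39e-06). The 1 gene called by limma voom with sample weights was Serpina12 (adjusted p = 0.0278). Without a filter on low counts edgeR called 13 genes, with Serpina12 and Foxq1 among them. In edgeR's leave-one-out runs the adjusted p of Serpina12 ran from 0.0043 to 0.358 and that of Foxq1 from 0.0303 to 0.847. Leaving out wt-normal replicate 1 brought Serpina12 past the threshold, with an adjusted p of 0.0043 in edgeR's quasi-likelihood test, and leaving out wt-normal replicate 3 brought Foxq1 past it, at 0.0303. The precision was limited: the median standard error of the interaction was 0.40 log2 units, and 5618 genes (38.9%) had a 95% interval within 1 log2 unit of 0. For the remaining genes these libraries do not bound the difference of the responses to 1 log2 unit.

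The diet responses on which the interaction acts were chosen by the mean of both genotypes' responses, which is orthogonal to the interaction in a balanced design. That concerns the estimates, and it holds where both responses have the same standard error. For some genes these differed, as for Gsta2 (0.48 in wild type, 0.41 in knockout) and Cpe (0.77 and 0.93). A larger standard error in wild type tilts the choice to a smaller knockout response, and a larger one in knockout to the opposite. Both tests share each gene's estimate of spread, so their p-values are not independent. By edgeR's quasi-likelihood test 150 of 14433 genes were called for this averaged response (1.04%), with 84 higher (0.582%) and 66 lower (0.457%) on HFD. Within wild-type livers alone 100 genes were called (0.693%), 62 higher (0.43%) and 38 lower (0.263%). That count was 23 and 9 without wt-normal replicate 2 or 3, 22 and 19 without wt-HFD replicate 1 or 2, 58 and 24 without ko-normal replicate 2 or 3 and 57 without ko-HFD replicate 2. Within knockout livers 0 genes (0%) were called by edgeR, 37 by DESeq2 and 6 by voom, and edgeR called 1 without wt-HFD replicate 1 and 6 without ko-HFD replicate 2. These within-genotype counts do not test a difference between genotypes, which is what the interaction does.

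Genes that rose on HFD over both genotypes had a median change of 1.39 in wild-type and 0.78 in knockout livers. Their median interaction was -0.49 (quartiles -1.03 to -0.14), and 71 of the 84 values were negative. Genes that fell had a median change of -1.37 in wild type and -0.83 in knockout, with a median interaction of 0.56 (quartiles 0.11 to 0.93) and 54 of 66 values positive. The median over all genes tested was 0.01. Of the 150 genes, 42 (28%) had an unadjusted interaction p under 0.05, against 5.02% of all genes, and 39 of those 42 had the sign of a smaller response in the knockout. Choosing genes by a small averaged p can favour genes with a low estimated spread, so 28% and 5.02% are not like for like. The direction was the same in both genotypes for 149 of the 150, against 9236 of all 14433 genes tested. Choosing genes on the mean of both responses itself favours a shared direction. Of the 150, 34 (22.7%) had an interval within 1 log2 unit of 0, against 38.9% of all genes tested.

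The groups that set the smaller knockout response differed between rises and falls. For the 84 rises the knockout was higher than the wild type on the normal diet by a median of 0.55, and on HFD the medians differed by -0.01. For the 66 falls the knockout differed by 0.04 on the normal diet and was higher on HFD by 0.45. A shift of wt-normal or wt-HFD alone enters the averaged diet response and the interaction with opposite signs, and a shift of ko-normal or ko-HFD alone enters both with the same sign. The wt-normal libraries had higher clock index values than the others, except that wt-HFD replicate 3 lay above wt-normal replicate 2. With this index as a covariate, the median interaction of the genes then called was -1.45 for rises and 2.66 for falls. In that fit the averaged response was not orthogonal to the interaction. The part of the index in the result was otherwise not tested.

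The count of 150 rested on single libraries. It was 77, 62 and 48 without wt-normal replicate 1, 2 or 3, 81, 68 and 272 without wt-HFD replicate 1, 2 or 3, 67, 56 and 48 without ko-normal replicate 1, 2 or 3, and 45 without ko-HFD replicate 1. The median interaction of the falls so called ranged from 0.23 without ko-HFD replicate 3 to 0.99 without wt-HFD replicate 1, with 0.98 without wt-normal replicate 1 and 0.35 without ko-HFD replicate 2. That of the rises ranged from -0.79 without wt-normal replicate 1, with -0.77 without wt-HFD replicate 1, to -0.34 without ko-HFD replicate 3. The signs of both medians held in all 12 leave-one-out runs. Leaving out a library unbalances the groups, so the averaged response is then not orthogonal to the interaction. The choice of genes then favours a smaller knockout response without a wild-type library and a larger one without a knockout library. Over all 14433 genes the wild-type and knockout diet responses, which share no library but were normalised together, had a Pearson correlation across genes of 0.291, and of 0.429 over the 7273 genes with a mean of at least 10 CPM. Genes are not independent replicates.

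**Figure D1:**
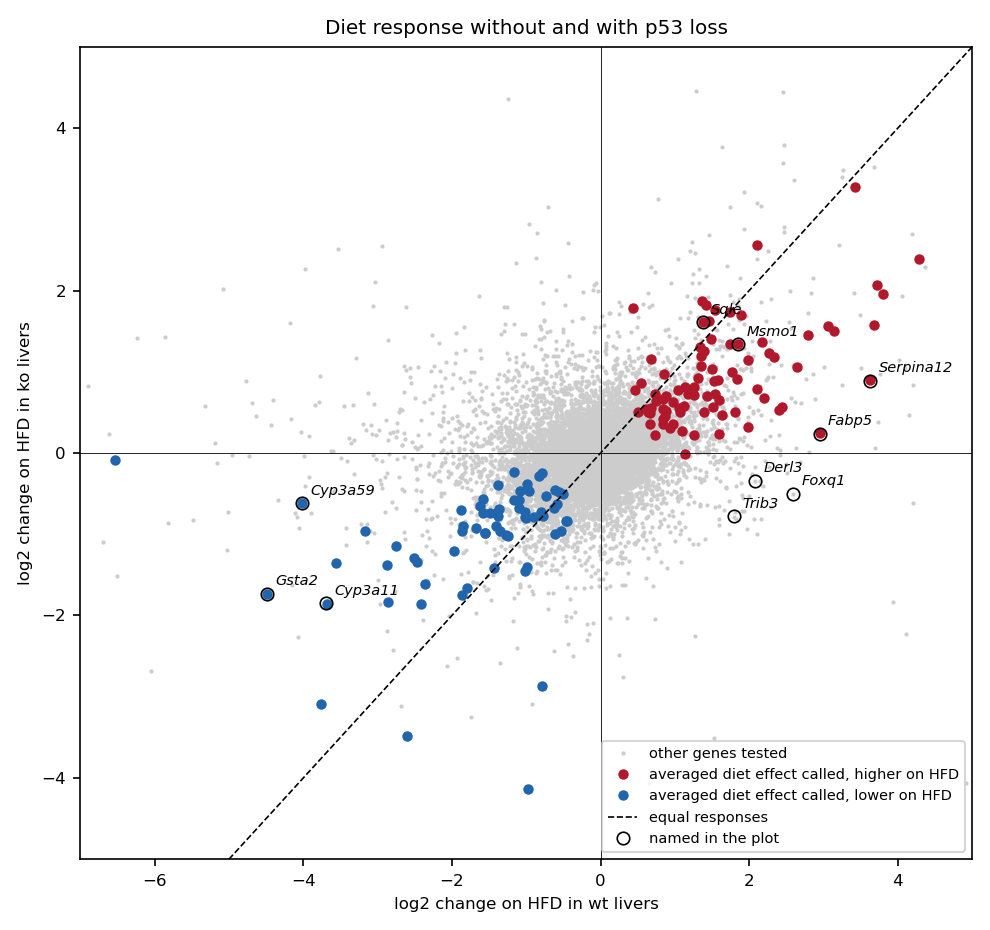
Each point is a gene, with its log2 change on HFD in wild-type livers on the x axis and in knockout livers on the y axis; red and blue points are the 84 rises and 66 falls called for the averaged response, rings mark the genes labelled, and 15 genes lie outside the axes. Most coloured points lie between the dashed line of equal responses and the horizontal axis, the side of a smaller response in the knockout.

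Serpina12 encodes vaspin, a serpin secreted by liver and fat that is linked to insulin sensitivity. It lies at chr12:104028769-104044443 on the minus strand (GRCm38). Its level was 25.7, 14.5 and 13.2 CPM in wt-normal, 213, 264 and 183 in wt-HFD, 108, 121 and 89.8 in ko-normal and 200, 170 and 221 in ko-HFD. The knockout libraries on the normal diet all lay above those of the wild type, and the HFD groups overlapped. Serpina12 rose on HFD in wild type by 3.63 (edgeR's quasi-likelihood adjusted p = 0.000127), while the knockout change was 0.89 (adjusted p = 0.585). The interaction was -2.74 (SE 0.36, 95% interval -3.51 to -1.97), the smallest p of all genes tested.

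Foxq1, a forkhead transcription factor, had the second smallest p among negative interactions. It was at 2.03, 2.62 and 5.52 CPM in wt-normal and 16.8, 15.5 and 29.1 in wt-HFD. The knockouts had 19.5, 20.4 and 15.1 CPM on the normal diet and 13, 10.4 and 15.4 on HFD, so that ko-normal, ko-HFD and wt-HFD lay together above wt-normal. Its interaction was -3.09 (SE 0.49, edgeR's quasi-likelihood adjusted p = 0.217). Klhdc7a, a kelch-domain gene, also had wt-normal below every other library, with 7.08, 5.38 and 3.37 CPM in wt-normal, 13.4 to 23.9 in wt-HFD, 20.4 to 33.1 in ko-normal and 17.4 to 33.8 in ko-HFD. Its interaction was -1.97 (SE 0.45).

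Fabp5, a fatty acid binding protein that is low in healthy hepatocytes, showed another order. It had 4.25, 7.19 and 3.32 CPM in wt-normal and 24.2, 49.4 and 40.9 in wt-HFD, against 5.1, 14.9 and 6.54 in ko-normal and 16, 5.93 and 9.53 in ko-HFD. Here wt-HFD alone stood above the other groups, with no overlap. The wild-type rise of 2.95 passed edgeR's quasi-likelihood test (adjusted p = 0.024), the knockout change was 0.24, and the interaction was -2.71 (95% interval -4.11 to -1.3). Among the other negative interactions with the smallest p, Cdk5rap3, a partner of the UFM1 protein-modification pathway at the ER, had -1.16 and a wild-type rise from 48.3 to 53.8 CPM up to 100 to 120 CPM. Slc23a1, a vitamin C transporter, had -0.95, and its level was 8.33 to 10.3 CPM in wt-normal, 25.4 to 30.6 in wt-HFD, 23.8 to 29.2 in ko-normal and 37.4 to 42.3 in ko-HFD. Klf10, a TGF-beta-inducible transcription factor, had -1.41, and Phlda1, a pleckstrin-homology protein, had -2.88. Klf10 had its highest group in ko-normal (26.1 to 33.2 CPM, against 8.43 to 12 in wt-normal).

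**Figure D2:**
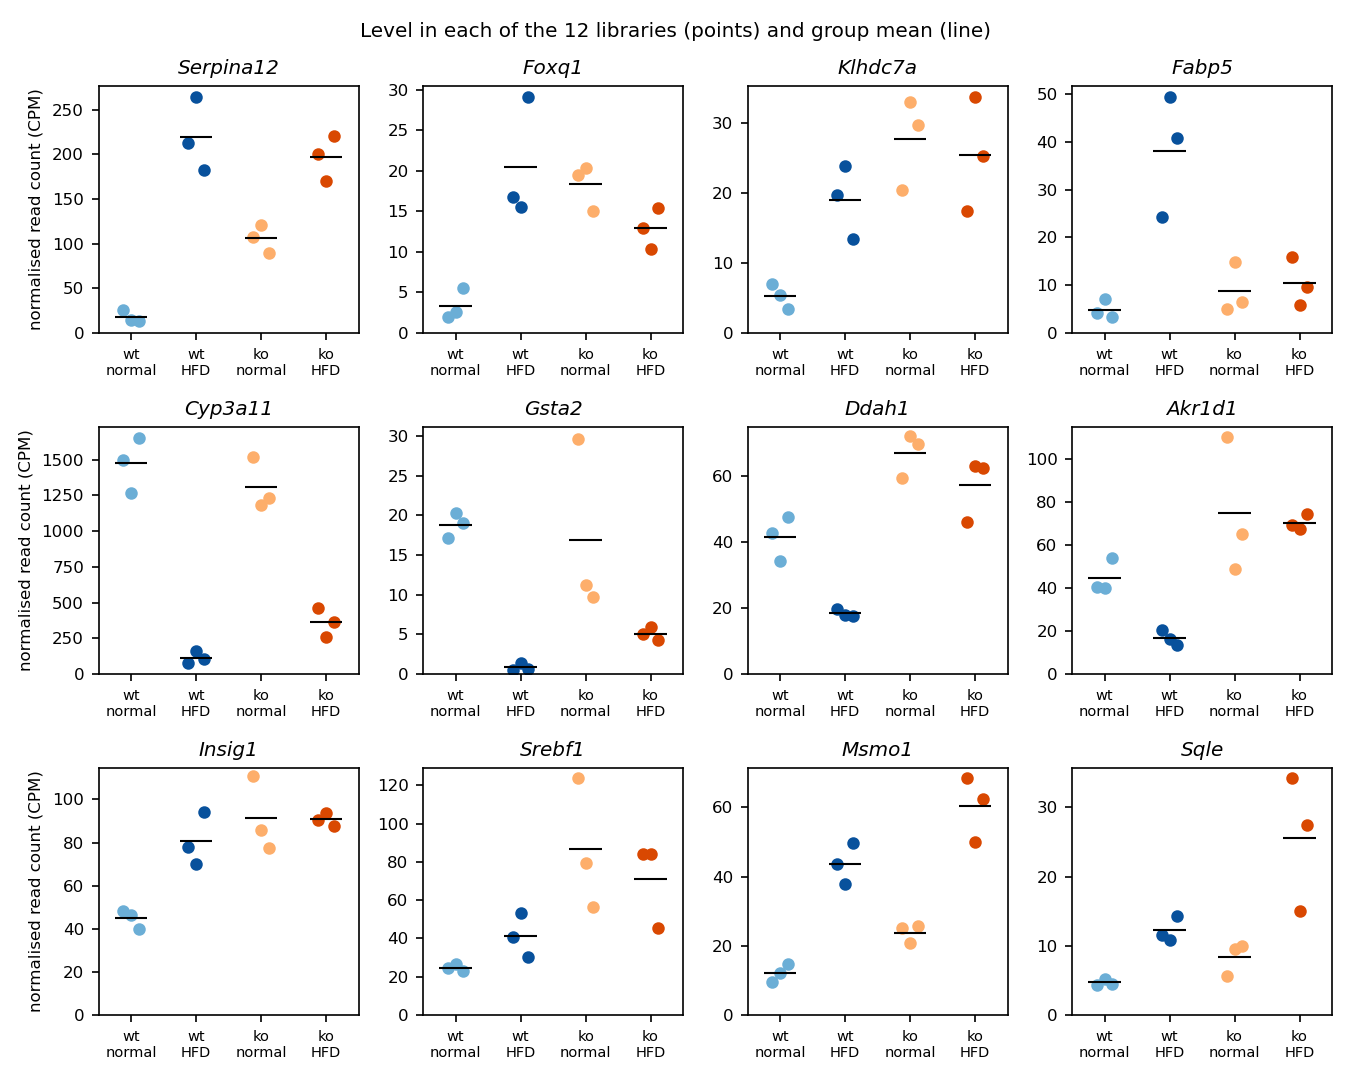
Normalised read count in CPM (y axis, from 0, a scale of its own in each panel) of 12 genes in the 3 libraries of each group (points) with the group mean (line). Serpina12, Foxq1 and Klhdc7a are lowest in wt-normal, Cyp3a11, Gsta2, Ddah1 and Akr1d1 are lowest in wt-HFD, and Msmo1 and Sqle are higher on HFD in both genotypes.

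The unfolded protein response was the only one of the 25 pathway lists whose tested members all had the same sign. It is the pathway by which a loaded ER raises chaperones and folding enzymes, through the sensors IRE1 with XBP1, ATF6 and PERK with ATF4. All 23 of its 23 listed members were tested, and 23 had a negative interaction, with a median of -0.81. Of these, 9 had an unadjusted p under 0.05, where 2.44% of all genes tested did so with a negative value. The adjusted threshold was passed by 0. The median change on HFD was 0.81 in wild type and 0.05 in knockout. The knockout was higher by a median of 0.57 on the normal diet and lower by 0.40 on HFD (median -0.40). Members of 1 pathway share regulators and are not independent, and over all genes tested 7118 of 14433 values were negative.

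Creld2, an ER-resident chaperone-like protein, was called for the averaged diet response, the only member of the list that was. It had 53.7, 27.5 and 38 CPM in wt-normal, 125, 107 and 127 in wt-HFD, 89, 93.6 and 75 in ko-normal and 107, 103 and 93.2 in ko-HFD. The knockout libraries on both diets lay between the wild-type groups, apart from the overlap at 107 CPM. Its interaction was -1.36 (SE 0.30, 95% interval -2.01 to -0.71). Among the folding enzymes, Pdia6, a protein disulfide isomerase, had -1.10 with 187, 99.6 and 131 CPM in wt-normal, 180, 211 and 336 in wt-HFD, 131, 267 and 223 in ko-normal and 152, 151 and 200 in ko-HFD, and these groups overlapped. Hspa5, the main ER chaperone BiP, had -0.71 (95% interval -1.57 to 0.15), with 272 to 502 CPM in wt-normal, 538 to 947 in wt-HFD, 325 to 577 in ko-normal and 513 to 587 in ko-HFD.

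The transcription factors of the response included Xbp1, the IRE1-spliced factor. It had 106 to 126 CPM in wt-normal and 173 to 311 in wt-HFD, which did not overlap, and 135 to 211 in ko-normal and 128 to 253 in ko-HFD, which did. Its interaction was -1.02 (95% interval -1.86 to -0.19). Ddit3, the pro-apoptotic factor CHOP, had -2.44, but its wt-HFD libraries ran from 14.6 to 124 CPM and overlapped every other group. Trib3, a pseudokinase induced by ATF4 and CHOP, had 4.62, 11.5 and 11.1 CPM in wt-normal, 54.4, 25.5 and 15 in wt-HFD, 17.7 to 29.1 in ko-normal and 8.27 to 18.5 in ko-HFD, with an interaction of -2.58. Derl3, an ER-associated degradation factor outside the list and among the 10 negative interactions with the smallest p, had 3.05 to 8.68 CPM in wt-normal, 23.2 to 27.7 in wt-HFD, 20.3 to 27.1 in ko-normal and 10.3 to 23.2 in ko-HFD. Atf4 itself, at -0.20 (95% interval -0.79 to 0.39), and Canx, at -0.09, were nearest to 0.

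Leaving out single libraries changed how many of the 23 members had an unadjusted p under 0.05, to 15 without wt-normal replicate 1 and to 5 without wt-HFD replicate 3 or ko-normal replicate 2. In every leave-one-out run 21 to 23 of the 23 stayed negative. The median was -0.64 without wt-normal replicate 2, the library with muscle transcripts, and -1.32 with the clock index as a covariate.

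**Figure D3:**
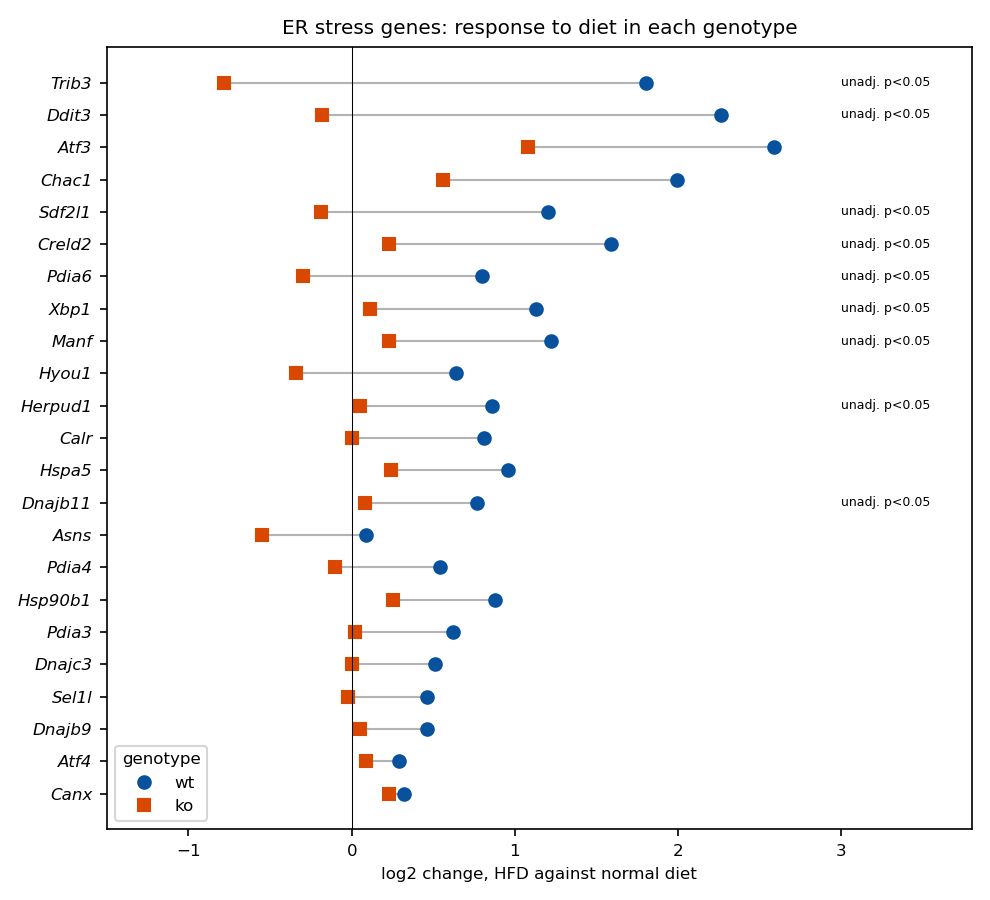
Log2 change on HFD (x axis) of the 23 ER stress genes in wild-type (blue circles) and knockout livers (orange squares), ordered by their difference. Every square lies left of its circle, and the 9 genes with an unadjusted interaction p under 0.05 are marked.

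Promoters of 3 members are printed because the list's values share a sign and several members carry the same element. The ER stress element, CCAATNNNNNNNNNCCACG searched on both strands, is bound by ATF6 and XBP1 with NF-Y. In the 250 bases upstream of the RefSeq start (GRCm38.p6) it was found for 7 of the 21 members matched (33.3%): Hspa5, Hsp90b1, Dnajc3, Pdia6, Calr, Canx and Creld2. Among all genes with a promoter it was found for 35 of 27018 (0.13%). The search was added after the values were seen. In the 3 promoters below, read on the gene's strand, the fixed bases of the element are in capitals; in Creld2 it lies on the opposite strand. They are chr15:88819396-88819645, chr12:17266339-17266588 and chr2:34771840-34772089, all on the plus strand, and the element starts 126, 98 and 65 bases upstream.
Creld2: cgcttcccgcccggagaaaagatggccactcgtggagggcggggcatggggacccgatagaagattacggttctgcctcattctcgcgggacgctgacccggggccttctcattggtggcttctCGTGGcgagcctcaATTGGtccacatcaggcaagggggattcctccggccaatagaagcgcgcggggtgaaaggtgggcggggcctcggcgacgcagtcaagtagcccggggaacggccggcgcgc
Pdia6: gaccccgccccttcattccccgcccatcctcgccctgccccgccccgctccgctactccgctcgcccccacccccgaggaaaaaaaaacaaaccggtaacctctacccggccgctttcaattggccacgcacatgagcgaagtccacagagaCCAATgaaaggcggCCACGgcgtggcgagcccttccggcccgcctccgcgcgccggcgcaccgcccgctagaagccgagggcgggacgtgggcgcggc
Hspa5: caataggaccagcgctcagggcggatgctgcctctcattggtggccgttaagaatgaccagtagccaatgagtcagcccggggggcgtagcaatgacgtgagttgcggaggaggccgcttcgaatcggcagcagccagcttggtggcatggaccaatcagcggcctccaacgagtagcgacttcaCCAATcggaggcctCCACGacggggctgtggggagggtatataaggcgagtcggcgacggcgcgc

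Among the members with the element, the interaction ran from -1.36 in Creld2 to -0.09 in Canx. Members without it in this window included Trib3 (-2.58), Ddit3 (-2.44), Xbp1 (-1.02) and Herpud1 (-0.81), so negative values were found with and without the element. A match describes the letters of the promoter and is not evidence of binding in these livers.

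Cholesterol synthesis, the pathway that holds Sqle, had members that rose on HFD over both genotypes. All 21 listed enzymes were tested, 5 were called higher for the averaged response, against 0.582% of all genes tested (Msmo1, Cyp51, Mvd, Sqle and Mvk), and 0 for the interaction. The median change on HFD was 0.48 in wild type and 0.49 in knockout, the median interaction was -0.04 (-0.30 without ko-HFD replicate 1 and 0.07 without wt-HFD replicate 3), and 1 enzyme, Hsd17b7 at 0.83, had an unadjusted p under 0.05. For 8 of the 21 the 95% interval lay within 1 log2 unit of 0, against 38.9% of all genes tested.

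Sqle (chr15:59315077-59331192, plus strand) had 4.31, 5.24 and 4.55 CPM in wt-normal, 11.5, 10.9 and 14.3 in wt-HFD, 5.68, 9.48 and 9.92 in ko-normal and 34.2, 15.1 and 27.5 in ko-HFD. Every HFD library lay above every normal-diet library of its genotype, and every knockout library above every wild-type library on the same diet. Sqle rose in the averaged response by 1.5 (edgeR's quasi-likelihood adjusted p = 0.00775), with 1.38 in wild type and 1.61 in knockout. The interaction was 0.23 (SE 0.41, 95% interval -0.66 to 1.12, unadjusted p = 0.582 by edgeR's quasi-likelihood test), and differences of the 2 responses inside that interval are not resolved. Without ko-HFD replicate 1 it was -0.07. On the CPM scale the change in knockout exceeded that in wild type by 9.68 CPM. The log2 interaction compares the ratios on HFD, and the CPM difference compares the amounts added.

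The interactions of the other called enzymes were close to 0 for Cyp51 and Mvd and lower for Msmo1 and Mvk, with intervals that all held 0. Cyp51, lanosterol demethylase, went from 19.2 to 23.7 CPM in wt-normal to 51.2 to 57 in wt-HFD, and from 27.8 to 29.7 in ko-normal to 55.6 to 98.9 in ko-HFD, with an interaction of -0.04 (95% interval -0.65 to 0.56). Mvd, mevalonate diphosphate decarboxylase, had -0.14 (95% interval -0.87 to 0.59), and Mvk, mevalonate kinase, had -0.53 (95% interval -1.29 to 0.22). Msmo1, methylsterol monooxygenase, had 9.6, 12 and 14.6 CPM in wt-normal, 43.7, 37.8 and 49.7 in wt-HFD, 25, 20.7 and 25.7 in ko-normal and 68.4, 49.9 and 62.4 in ko-HFD. Its interaction was -0.51 (95% interval -1.09 to 0.06) although its change in CPM was larger in the knockout by 4.77. Opposite signs on the log2 and CPM scales were seen in 25 of the 150 genes called for the averaged response (16.7%) and in 4.91% of all genes tested.

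Regulators of sterol uptake and sensing were listed apart from the enzymes, and the difference between the lists was not tested. Of 13 members tested, 0 were called and 4 had an unadjusted p under 0.05, all negative (2.44% of all genes), with a median interaction of -0.39. Insig1, which holds the SREBP escort protein in the ER, had 48.3, 46.6 and 39.7 CPM in wt-normal, 77.7, 70 and 94 in wt-HFD, 111, 85.6 and 77.5 in ko-normal and 90.6, 93.7 and 87.8 in ko-HFD. All libraries outside wt-normal lay above it and overlapped each other, and the interaction was -0.86 (95% interval -1.39 to -0.33). Srebf1, the lipogenic SREBP factor, had 22.9 to 26.4 CPM in wt-normal and 56.2 to 124 in ko-normal, against 30.3 to 53.4 and 45.4 to 84.2 on HFD, with -1.03. Npc1, the lysosomal cholesterol exporter, had -0.62. The median of this list was -0.10 with the clock index as a covariate and -0.29 without wt-normal replicate 3 or wt-HFD replicate 1.

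**Figure D4:**
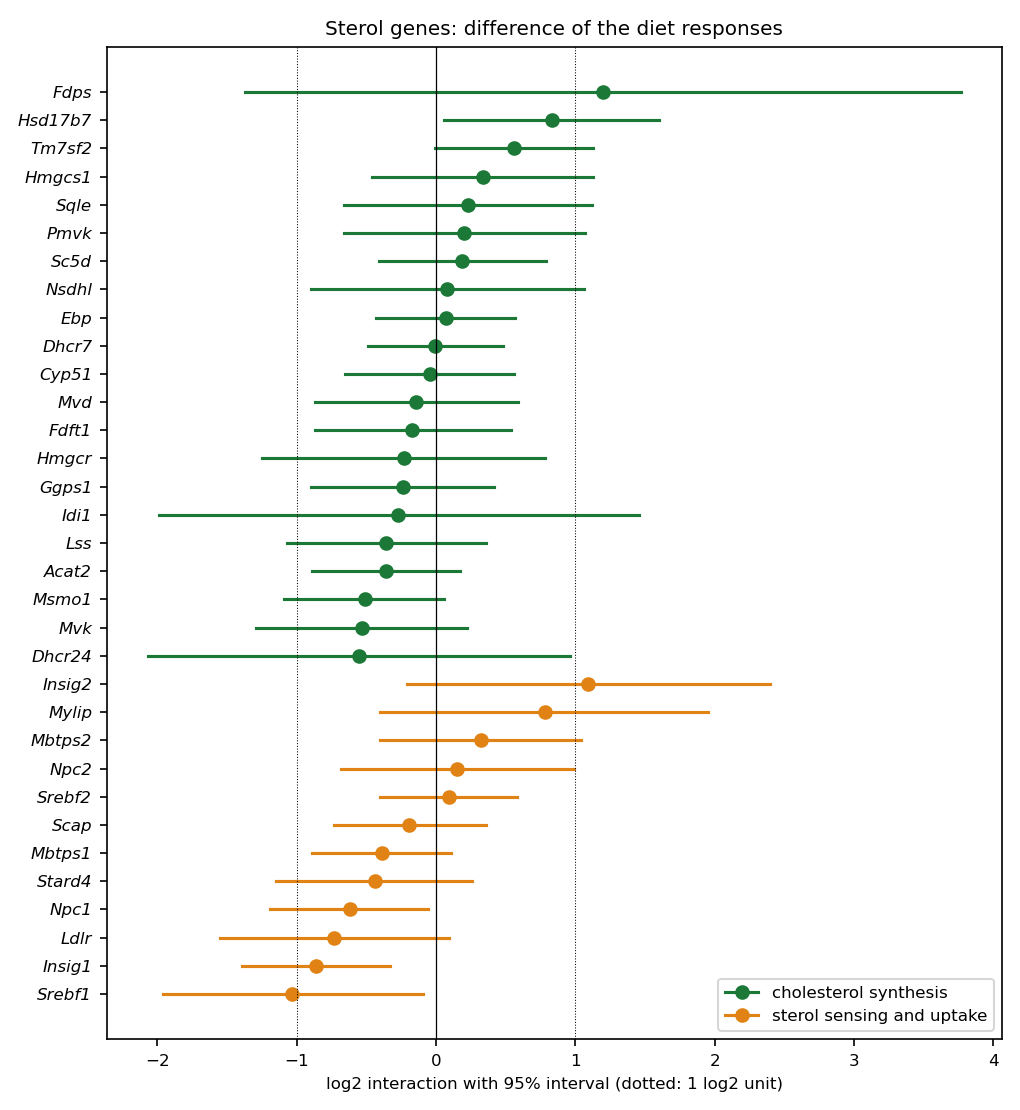
Log2 interaction (x axis, points) with its 95% interval (bars) for the 21 cholesterol synthesis genes (green) and 12 of the 13 tested genes of sterol sensing and uptake (orange), with dotted lines at 1 log2 unit. Most cholesterol synthesis genes straddle 0, and the intervals of Insig1, Srebf1 and Npc1 lie below it.

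Sterol esterification and bile acid enzymes included members in both directions. Soat2, which esterifies cholesterol in hepatocytes, had 34.3 to 36.1 CPM in wt-normal, 65.5 to 119 in wt-HFD, 68.1 to 89 in ko-normal and 50.5 to 109 in ko-HFD, with an interaction of -1.42. Soat1, its relative in macrophages, had 1.05 at 2 to 4.48 CPM. Akr1d1, the bile acid 5-beta-reductase, had 40.3, 40.2 and 54 CPM in wt-normal, 20.6, 16.3 and 13.3 in wt-HFD, 110, 49 and 65.3 in ko-normal and 69.3, 67.4 and 74.3 in ko-HFD. Akr1d1 fell in wild type (-1.42, edgeR's quasi-likelihood adjusted p = 0.0355), with -0.08 in knockout and an interaction of 1.34. Cyp7b1, an oxysterol hydroxylase, had -1.15. The list medians were -0.14 for sterol efflux and esterification and -0.06 for bile acid synthesis, and they ran from -0.17 to 0.05 and from -0.09 to 0.12 when single libraries were left out.

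Drug-metabolising cytochromes had a median change on HFD of -0.52 in wild type and -0.08 in knockout. Of 20 members tested 17 had a positive interaction, with a median of 0.44. Of these, 3 had an unadjusted p under 0.05, against 2.58% of all genes tested in that direction, and 0 were called. Cyp3a11, the main liver CYP3A enzyme, had 1500, 1270 and 1650 CPM in wt-normal, 77.8, 162 and 104 in wt-HFD, 1520, 1180 and 1230 in ko-normal and 465, 256 and 366 in ko-HFD. The normal-diet groups overlapped, and every ko-HFD library lay above every wt-HFD library. Cyp3a11 fell in wild type by 3.69 (edgeR's quasi-likelihood adjusted p = 0.000221), the knockout change was -1.85 (adjusted p = 0.0713), and the interaction was 1.83 (95% interval 0.97 to 2.69). Cyp3a59 (3.40) and Cyp3a25 (1.63) had the same direction, but genes of this family are near-identical in sequence and reads could have been split between them, so their separate values are uncertain. Leaving out wt-HFD replicate 3 moved the list's median to 0.89, leaving out ko-normal replicate 1 to 0.67, and leaving out wt-normal replicate 1 or ko-HFD replicate 1 to 0.25 and 0.26.

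Conjugating and antioxidant enzymes gave 18 positive values among 22, with a median of 0.30. The median was 0.06 without wt-normal replicate 1, 0.15 without wt-HFD replicate 1, 0.17 without ko-normal replicate 3 or ko-HFD replicate 1, 0.5 without ko-HFD replicate 2 and 0.56 without wt-HFD replicate 3. Gsta2, a glutathione transferase with close paralogs, had 17.1, 20.3 and 19.1 CPM in wt-normal, 0.481, 1.42 and 0.623 in wt-HFD, 29.7, 11.2 and 9.7 in ko-normal and 5.02, 5.87 and 4.33 in ko-HFD. The interaction was 2.76, and the ko-HFD libraries all lay above those of wt-HFD. Nqo1, a quinone reductase under NRF2 control, had 5.47 to 7.14 CPM in wt-normal and 2.1 to 2.89 in wt-HFD, against 4.17 to 5.29 and 3.04 to 5.08 in the knockouts, with 1.11. Fmo1, a flavin monooxygenase, had 0.96, with 64.2 to 74.6 CPM in wt-HFD and 98.4 to 140 in the other 3 groups.

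Urea cycle and amino acid breakdown had the most positive members at an unadjusted p under 0.05 of the 25 pathway lists. All 24 were tested, 18 were positive, 6 of these had an unadjusted p under 0.05 (2.58% of all genes) and 0 were called, with a median of 0.53. The median change on HFD was -0.97 in wild type and -0.48 in knockout, and 9 of the 24 fell in the averaged response, against 0.457% of all genes tested. Ddah1, which breaks down methylated arginines, had 42.6, 34.2 and 47.7 CPM in wt-normal, 19.8, 18 and 17.7 in wt-HFD, 59.3, 72.1 and 69.6 in ko-normal and 46.1, 62.9 and 62.5 in ko-HFD. It fell in wild type by 1.17 (edgeR's quasi-likelihood adjusted p = 0.0196), with -0.23 in knockout and an interaction of 0.94 (95% interval 0.41 to 1.46). Ass1, argininosuccinate synthase of the urea cycle, had 2390 to 3430 CPM in wt-normal, 713 to 1180 in wt-HFD, 1670 to 2610 in ko-normal and 1030 to 1620 in ko-HFD, with 1.02. Etnppl, an ethanolamine-phosphate lyase, had 1.49, and Acmsd, of tryptophan breakdown, had 1.61. The list's median lay between 0.40 and 0.59 in the leave-one-out runs.

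The acute phase, immediate early and clock lists had negative medians whose size moved with single libraries or the clock index. The acute phase list of 23 secreted inflammatory proteins had a median of -0.65, which was -1.67 without ko-HFD replicate 1, -0.37 without ko-HFD replicate 3 and -1 without ko-normal replicate 1, and negative in every leave-one-out run. Replicate 1 of ko-HFD held 15300 CPM of Saa1, serum amyloid A, against 169 and 271 in the other ko-HFD libraries and 12300 to 13600 in wt-HFD. Lbp, the lipopolysaccharide binding protein, had -1.04, with 247 to 384 CPM in wt-HFD and 139 to 228 in the other groups. The immediate early list of 19 tested genes had a median of -0.98, which was -0.09 without wt-HFD replicate 3 and -1.48 without wt-HFD replicate 1. In replicate 3 of wt-HFD Egr1, a growth-factor-induced zinc finger factor, had 648 CPM against 18.9 and 34.3 in its group, and Junb, an AP-1 subunit, had 404 against 68.9 and 110.

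The 18 clock genes had a median of -0.62, which was -0.20 with the index as a covariate. Dbp, a clock-driven transcription factor, had 2.15, 13.5 and 2.04 CPM in wt-normal, 83.6, 59.1 and 6.52 in wt-HFD, 97.3 to 191 in ko-normal and 74.6 to 125 in ko-HFD. Its interaction of -3.40 was -0.53 with the covariate, and since the index is built from clock genes this is not independent of it. Bhlhe41, a clock repressor, had 0.554 to 2.81 CPM in wt-normal, 4.39 to 9.74 in wt-HFD, 6.16 to 14.8 in ko-normal and 3.62 to 7.02 in ko-HFD. The labels give no time of day of tissue collection, and its part cannot be told apart from that of the groups.

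Among the p53 target genes 15 of 29 tested values were positive and 14 negative, with a median of 0.04 (-0.16 to 0.15 in leave-one-out) and 0 called. Phlda3, a p53-induced AKT inhibitor, was the member with an unadjusted p under 0.05, at 3.25. It had 24.9 CPM in wt-normal replicate 2 and 0.849 to 2.45 in the 11 other libraries, and without that library its interaction was 0.64. Gadd45a, a stress-induced growth arrest gene, had 2.77, 6.76 and 1.84 CPM in wt-normal, 50.9, 81.4 and 28.1 in wt-HFD, 8.11, 7.34 and 5.12 in ko-normal and 52.6, 9.21 and 18.2 in ko-HFD. It rose in the averaged response by 2.88 (edgeR's quasi-likelihood adjusted p = 0.0126), with an interaction of -1.84 (95% interval -3.69 to 0). Gdf15, a stress-induced secreted factor, was the other member called for the averaged response, with 3.72 in wild type and 2.07 in knockout. Mdm2, the p53 ubiquitin ligase, had -0.08 (95% interval -0.55 to 0.40), and Btg2 had -2.31, which was -0.19 without wt-HFD replicate 3.

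Promoters were searched for the p53 decamer, the unit of which a p53 site holds a pair (by its consensus, both strands), and the E-box CACGTG, a palindrome, in the 250 bases upstream of the RefSeq start. They were matched for 58 of the 80 named genes. A decamer was in 7.13% of all 32841 promoters, 2 decamers 0 to 13 bases apart in 0.0639%, and an E-box in 6.02%. Counted by gene, with a match in any of its promoters, a decamer was found for 8.2% of all 27018 genes with a promoter and for 9 of the 58 (15.5%), and an E-box for 6.86% and for 6 of the 58 (10.3%). The difference of these shares was not tested. The 9 include Trp53, Cdkn1a and Gadd45a, which were named as p53 itself or as its listed targets. Among the matched genes named for the smallest interaction p in each direction, Klhdc7a alone had a decamer. Printed are Cdkn1a, the p53 target with a pair of decamers 73 and 51 bases upstream (chr17:29090729-29090978, plus strand), Klhdc7a, among the smallest interaction p-values and with 1 decamer 230 bases upstream (chr4:139968027-139968276, minus strand), and Insig1, with an E-box 101 bases upstream (chr5:28071162-28071411, plus strand). Capitals mark the decamers or the E-box, which were matched exactly, so decamers with a mismatch are not marked. In Cdkn1a the letters tgacatgttc, straight after the second marked decamer, are such a near match. Which of these decamers p53 binds as a pair was not tested. Another Cdkn1a promoter (chr17:29093519-29093768, plus strand), with 0 decamers, is not printed.
Cdkn1a: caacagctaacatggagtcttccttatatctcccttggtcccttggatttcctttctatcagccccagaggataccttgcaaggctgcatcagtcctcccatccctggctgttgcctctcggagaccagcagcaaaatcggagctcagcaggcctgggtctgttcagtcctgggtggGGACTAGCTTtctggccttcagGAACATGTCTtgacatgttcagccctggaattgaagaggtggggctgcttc
Klhdc7a: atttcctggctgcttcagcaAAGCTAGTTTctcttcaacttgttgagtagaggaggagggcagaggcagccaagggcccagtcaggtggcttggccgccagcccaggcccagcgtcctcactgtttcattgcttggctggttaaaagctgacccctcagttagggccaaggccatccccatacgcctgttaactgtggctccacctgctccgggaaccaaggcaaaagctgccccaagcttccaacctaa
Insig1: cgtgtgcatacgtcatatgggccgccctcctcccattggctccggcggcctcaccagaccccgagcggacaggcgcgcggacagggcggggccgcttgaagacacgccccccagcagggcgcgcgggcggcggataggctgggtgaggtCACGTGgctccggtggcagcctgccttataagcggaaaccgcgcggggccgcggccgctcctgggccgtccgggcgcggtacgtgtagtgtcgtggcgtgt

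Lipid and glucose lists had members in both directions. Fatty acid and triglyceride synthesis had a median of 0.14 over 19 genes, fatty acid oxidation and ketogenesis 0.20 over 21, and glucose metabolism -0.09 over 18. Without ko-HFD replicate 1 the first was -0.04 and the last -0.30, and without ko-normal replicate 1 the oxidation median was -0.20. Slc2a2, the hepatocyte glucose transporter, had 27.9 to 51.6 CPM in wt-normal, 65.5 to 91.9 in wt-HFD, 125 to 163 in ko-normal and 124 to 177 in ko-HFD, with -0.93. Fgf21, a fasting and stress hormone of the liver, had -2.87 with an interval of -5.91 to 0.18, and wt-HFD libraries at 338, 11 and 66.5 CPM. Lpl, lipoprotein lipase, had 3.66, but 730 CPM in wt-normal replicate 2 against 16.2 to 50.4 in the others, and -0.10 without that library. Pdk4, a pyruvate dehydrogenase kinase, likewise had 197 CPM there and went from 2.54 to -0.07 without it.

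Markers of other cell types moved with the interaction in wt-normal replicate 2. The 6 tested B cell markers all had positive values, with a median of 3.28. Of these markers 5 had an unadjusted p under 0.05, against 2.58% of all genes tested in that direction. Their summed level was 13.4 to 233 CPM in wt-normal, 11.7 to 15.5 in wt-HFD, 10.8 to 23.4 in ko-normal and 19.4 to 30.3 in ko-HFD. Ighm, the immunoglobulin M heavy chain, had 107 CPM in replicate 2 of wt-normal and 2.86 to 7.46 in the other libraries. The 9 tested muscle markers were positive too, with summed levels of 7.39 to 9740 CPM in wt-normal. Igha, the immunoglobulin A heavy chain and the positive interaction with the smallest p, had 4, 8.24 and 4.85 CPM in wt-normal, 1.74, 2.97 and 3.06 in wt-HFD, 1.8, 0.699 and 2.62 in ko-normal and 8.99, 12.6 and 4.33 in ko-HFD. Its interaction of 3.48 was 3.10 without wt-normal replicate 2. Slamf6, a lymphocyte receptor, had 4.47 at 0.0567 to 1.19 CPM, and 3.67 without that library.

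Of the 15 antigen presentation genes tested 7 were positive and 8 negative, with a median of 0 (-0.1 to 0.04 in leave-one-out). The difference between its classes was not tested. The class II genes H2-Aa, H2-Ab1 and H2-Eb1 had 1.40, 1.15 and 1.29, each with an unadjusted p under 0.05 (2.58% of all genes in that direction). H2-DMa, a class II peptide-loading factor outside the list, had 2.01. H2-DMa was at 4.92 to 6.52 CPM in wt-normal, 1.61 to 2.32 in wt-HFD, 2.55 to 5.69 in ko-normal and 4.26 to 8.9 in ko-HFD, and its interaction was 1.84 without wt-normal replicate 2. H2-Aa had 21.4 to 39 CPM in wt-normal and 10.2 to 19.4 in wt-HFD. Class I genes H2-K1 and H2-D1 had 0 (95% interval -0.55 to 0.54) and -0.14 (95% interval -0.76 to 0.48). Stellate and fibroblast markers were positive in 11 of 11, with summed levels of 182 to 820 CPM in wt-normal, 93.5 to 370 in wt-HFD, 112 to 122 in ko-normal and 88.9 to 167 in ko-HFD. Endothelial markers summed to 498 to 575, 351 to 474, 262 to 429 and 258 to 395 CPM in the same order. The part of cell composition in the class II values was not tested.

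**Figure D5:**
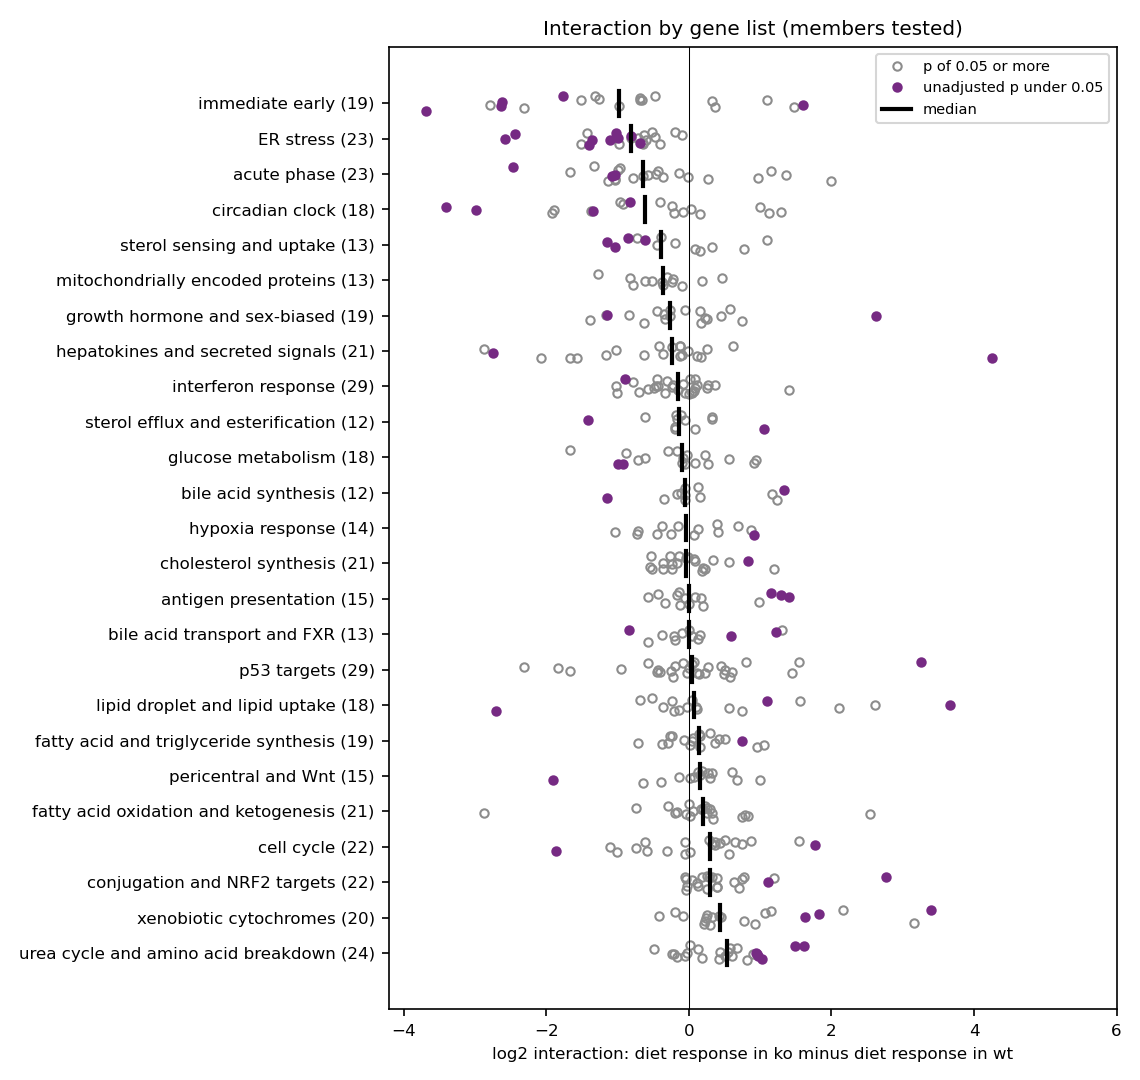
Log2 interaction (x axis) of every tested member of the 25 pathway lists (number tested in brackets), with purple points at an unadjusted p under 0.05 and black bars at the list median. The medians run from -0.98 for immediate early genes to 0.53 for urea cycle and amino acid breakdown, and all 23 ER stress genes lie left of 0.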

How the data were processed

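Liver RNA-seq libraries were analysed from raw read counts per gene as the authors deposited them, in 12 tables of 52636 genes. Per the submitters' processing notes CASAVA 1.8 and Bowtie 0.12.2 were used, with builds mm8 and mm9 named. Counting tool, annotation and strand setting: not given in the sources used here, so overlapping and antisense genes cannot be told apart. Gene names and coordinates came from GENCODE on GRCm38, by gene ID, and promoters from RefSeq.

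Counts were filtered with filterByExpr (14433 genes), scaled by TMM and fitted with edgeR 4.0.16 (R 4.3.3) as 4 group means over all 12 libraries, with quasi-likelihood F-tests and Benjamini-Hochberg adjustment at 0.05. Standard errors were the log2 value divided by the square root of F, and 95% intervals used 8 residual and 4.66 prior degrees of freedom. The fit was tested on simulated counts. Alternatives were RLE scaling, library totals, other filters, DESeq2 1.42.0, limma 3.58.1 voom, a replicate block, a clock index covariate, muscle and mitochondrial genes out of the totals, and leaving out libraries. Replicates differed by more than sampling noise.

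Members and lists were chosen with earlier results of these data known. Named were Trp53, Sqle and Cdkn1a, the 10 smallest interaction p-values in each direction (predicted models and further members of a family left out), the 4 or 2 smallest of each of 25 pathway lists, and the 6 rises and 6 falls with the smallest averaged-diet p. Marker lists (12) were summed per library. Other members of a list or set named in the text (such as Atf4, Canx, Hspa5, Xbp1, Ddit3, Mdm2, Gdf15, Saa1, Egr1, Ighm, Ass1, Acmsd, H2-Eb1, H2-K1 and H2-D1) were chosen after their values were seen. Results for lists were described without a set test. The results of the lists not described in the report are in the closing section. Values of some single genes are not reported here.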

Additional observations from a re-analysis of the deposited data

How the results depend on the processing

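Of 80 named genes, 73 kept the sign of their interaction under every alternative. Most were named for a small interaction p, and the alternatives reuse the same libraries, so a kept sign is largely built in. The share over all genes tested is not given here. The interaction count, 0 with edgeR, was 13 with no filter on low counts, 19 with DESeq2, 1 with voom and 4 with the clock index as a covariate (Foxq1, Fndc5 and Myh1 among them), and 0 to 1 in the leave-one-out runs. The unadjusted count of 725 was 1303 with no filter and 1279 with voom, and 561 to 945 in leave-one-out. The averaged diet count of 150 was 489 with no filter, 807 with DESeq2, 610 with voom, 94 with the clock index and 28 without the 3 libraries with muscle or high mitochondrial counts (added after seeing the data), and 45 to 272 in leave-one-out. The wild-type diet count of 100 was 696, 660, 217, 159 and 17 in the same order, and 9 (without wt-normal replicate 3) to 131 in leave-one-out. The knockout count of 0 was 21 with no filter, 37 with DESeq2 and 6 with voom, and 0 to 6 in leave-one-out. The cause of these differences was not tested.

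Signs turned for values near 0, and also for Pdk4 (2.54), Lpl (3.66) and mt-Nd5 (-0.83). With library totals alone, which moved the median of all genes to 0.17, Cyp51 was 0.11 and Mvd 0.02. Sqle was -0.11 with voom, Trp53 -0.42 and Cyp51 0.03 with the clock index, and Pdk4 -0.11 without the 3 libraries. Leaving out single libraries gave ranges of -0.37 to 1.19 for Trp53, -0.07 to 0.5 for Sqle, -0.07 to 4.04 for Pdk4, -0.1 to 4.21 for Lpl, -1.22 to 0.11 for mt-Nd5, -0.38 to 0.11 for Cyp51 and -0.41 to 0.04 for Mvd.

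The main fit did not pair libraries by replicate number, and whether the numbers mark pairs was not tested. Of 18 same-number pairs, 4 had a correlation of deviations over 0.1 (range -0.209 to 0.332, against -0.248 to 0.235 for other pairs). Among the other pairs, which are more numerous, values of 0.235, 0.209, 0.197 and 0.184 were also over 0.1. Of 12 libraries, 7 correlated best with a library of their own number, and the count for numbers without meaning was not computed. With the replicate block the interaction count was 0, the averaged diet count 104, the wild-type count 91 and the knockout count 0. With 3 libraries a group, an interaction under about 1 log2 unit was not resolved for most genes.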

Other observations

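Other genes with small interaction p-values belonged to no list. Ntrk2, a neurotrophin receptor, had 0.923, 2.24 and 0.664 CPM in wt-normal, 0.301, 0.774 and 0.17 in wt-HFD, 0.753, 0.599 and 0.654 in ko-normal and 2.39, 2.3 and 3.01 in ko-HFD, where every library lay above all others. Its interaction was 3.56 (SE 0.80). Rpia, ribose-5-phosphate isomerase of the pentose phosphate pathway, had 4.14 to 5.29, 3.12 to 3.55, 3.19 to 3.6 and 5.14 to 6.79 CPM in the same order, with 1.29. Ciapin1, of cytosolic iron-sulfur cluster assembly, had 30.9 to 36.1, 18.7 to 22, 25.6 to 28.8 and 27.2 to 31.4 CPM, with 0.81 (95% interval 0.4 to 1.23). Among the falls with the smallest averaged-diet p, Tiam2, a Rac exchange factor, had a change of -1.02 in wild type and -1.45 in knockout, and Slco1a4, a bile salt and drug transporter, had -2.51 and -1.29. Slco1a4 had a positive log2 interaction of 1.22 while its CPM difference of changes was -3.91.

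The lists not described above had 0 genes called for the interaction. Medians were 0 for bile acid transport, 0.07 for lipid droplet and lipid uptake, -0.15 for the interferon response, -0.26 for growth hormone and sex-biased genes, -0.24 for hepatokines, 0.16 for pericentral and Wnt genes, -0.04 for the hypoxia response, 0.30 for the cell cycle and -0.36 for mitochondrially encoded proteins. Most of these medians moved with single libraries. Leaving out wt-HFD replicate 3 gave 0.04 for growth hormone and sex-biased genes, 0.25 for the hypoxia response and 0.07 for the cell cycle. Leaving out ko-normal replicate 1 gave 0.23 for mitochondrially encoded proteins and -0.18 for lipid droplet genes, and leaving out ko-normal replicate 3 gave 0.08 for the interferon response. The hepatokine median was -0.61 without wt-normal replicate 1 and -0.05 without wt-HFD replicate 1. The pericentral median was -0.12 without ko-HFD replicate 2, and that of bile acid transport ran from -0.13 without ko-HFD replicate 3 to 0.09 without wt-HFD replicate 3. Xaf1, an interferon-induced gene, had 3.51 to 5.05 CPM in wt-normal, 10.9 to 11.6 in wt-HFD, 7.71 to 18 in ko-normal and 13.2 to 19.4 in ko-HFD, with an interaction of -0.89. Cenpm, a centromere gene, had 0.123 to 0.46 CPM in wt-normal, 1.32 to 1.61 in wt-HFD, 1.68 to 2.85 in ko-normal and 2.32 to 3.68 in ko-HFD, with -1.87. Marker medians were -0.04 for hepatocytes, 0.52 for endothelial cells, 0.65 for stellate cells, 0.27 for macrophages, 0.51 for neutrophils, 1.47 for T and NK cells, -1.39 for cholangiocytes, 0.90 for erythroid cells, 8.42 for skeletal muscle, 3.46 for adipocytes (2 markers tested) and -0.69 for exocrine pancreas (2 tested). Cholangiocyte markers summed to 25.6 to 42.2, 13.6 to 99.8, 38.1 to 68.7 and 32.8 to 52.3 CPM in wt-normal, wt-HFD, ko-normal and ko-HFD.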
